A study of Mus musculus with 6 samples.

Results

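The genes described here are the matrix metalloproteinases (Mmp genes), the ADAM and ADAMTS metalloproteinases and the Timp inhibitors of mouse type II alveolar epithelial cells, the lung cells that make and secrete surfactant. They were chosen by gene symbol alone, as every gene whose symbol begins with Mmp, Timp, Adam or Adamts followed by a digit and that had a probe set with exactly 1 gene symbol. This gave 78 of the 19938 genes tested. Of these, 75 had 1 probe set and 3 had several, and the probe set with the highest mean was used.

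RNA was measured on 6 Affymetrix arrays, 3 per group, and each array held cells pooled from 3 mice aged 8 weeks. The pools labelled knockout came from mice that carried SP-C-rtTA, (tetO)7CMV-Cre and 2 floxed copies of the adhesion receptor gene Gpr116, written Gpr116flx/flx. The control pools came from littermates with SP-C-rtTA and (tetO)7CMV-Cre and no floxed allele named, so both groups carried the Cre transgenes. In this system the surfactant protein C promoter restricts Cre to cells that use that promoter, and an inducer is needed; when it was given is not stated in the labels. The cells were obtained by collagenase digestion and differential plating and were lysed within hours, so a pellet can hold other lung cells. The comparison asked what loss of Gpr116 changed in these cells.

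The Gpr116 probe set (current symbol Adgrf5) read higher, not lower, in the knockout group (11.85 ± 0.06 against 11.51 ± 0.02, SD, n = 3 each). Its position relative to the floxed segment is unknown here, so this reading checks nothing, and the groups are named by their labels throughout. All values are log2 RMA values, a scale on which 1 unit is a doubling, and differences are labelled knockout minus control. Markers of type II cells averaged 12.261, 12.236 and 12.286 on labelled knockout 1, 2 and 3 and 12.176 to 12.205 on the controls. These means lie near the top of the scale, and every array labelled knockout was slightly above every control. By Xist and Y-linked genes, labelled knockout 2 and control 1 were male pools and the others were female. Mean T cell markers read 6.51 on labelled knockout 1 and 5.46 to 5.67 on the other arrays. The 12 ciliated cell markers were all lower, with means of 8.79, 8.40 and 8.24 on labelled knockout 1, 2 and 3 and 9.41 to 9.48 on the controls.

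Metalloproteinases of these families cut with a zinc ion held in their active site. The Mmps degrade collagens, laminins, elastin and other matrix proteins, the ADAMs are anchored in the membrane and release the outer parts of growth factors, receptors and adhesion proteins, and the ADAMTSs are secreted and cut proteoglycans, procollagens and microfibril proteins. Timps are small secreted proteins that plug the active site. In the lung the balance between them is studied in alveolar growth, emphysema and fibrosis.

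Of the 78 genes, 5 rose, 3 fell and 70 did not pass an adjusted p of 0.05 (limma, fitted over all 19938 genes, Benjamini-Hochberg). The share called was 10.3%, beside 8.49% of all genes tested (3.36% higher and 5.13% lower), so the families as a whole were called about as often as any gene. The 5 that rose were Timp1, Adam9, Adam17, Adam19 and Adamts6, and the 3 that fell were Adam28, Adam8 and Adamts20. The groups did not overlap for 25 members (32.1%, beside 27.6% of all genes), 15 of them higher and 10 lower. The median difference was -0.023 over the members and 0.003 over all genes. An unadjusted p under 0.05 was reached by 19 members, and by 22.1% of all genes tested.

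**Figure D1:**
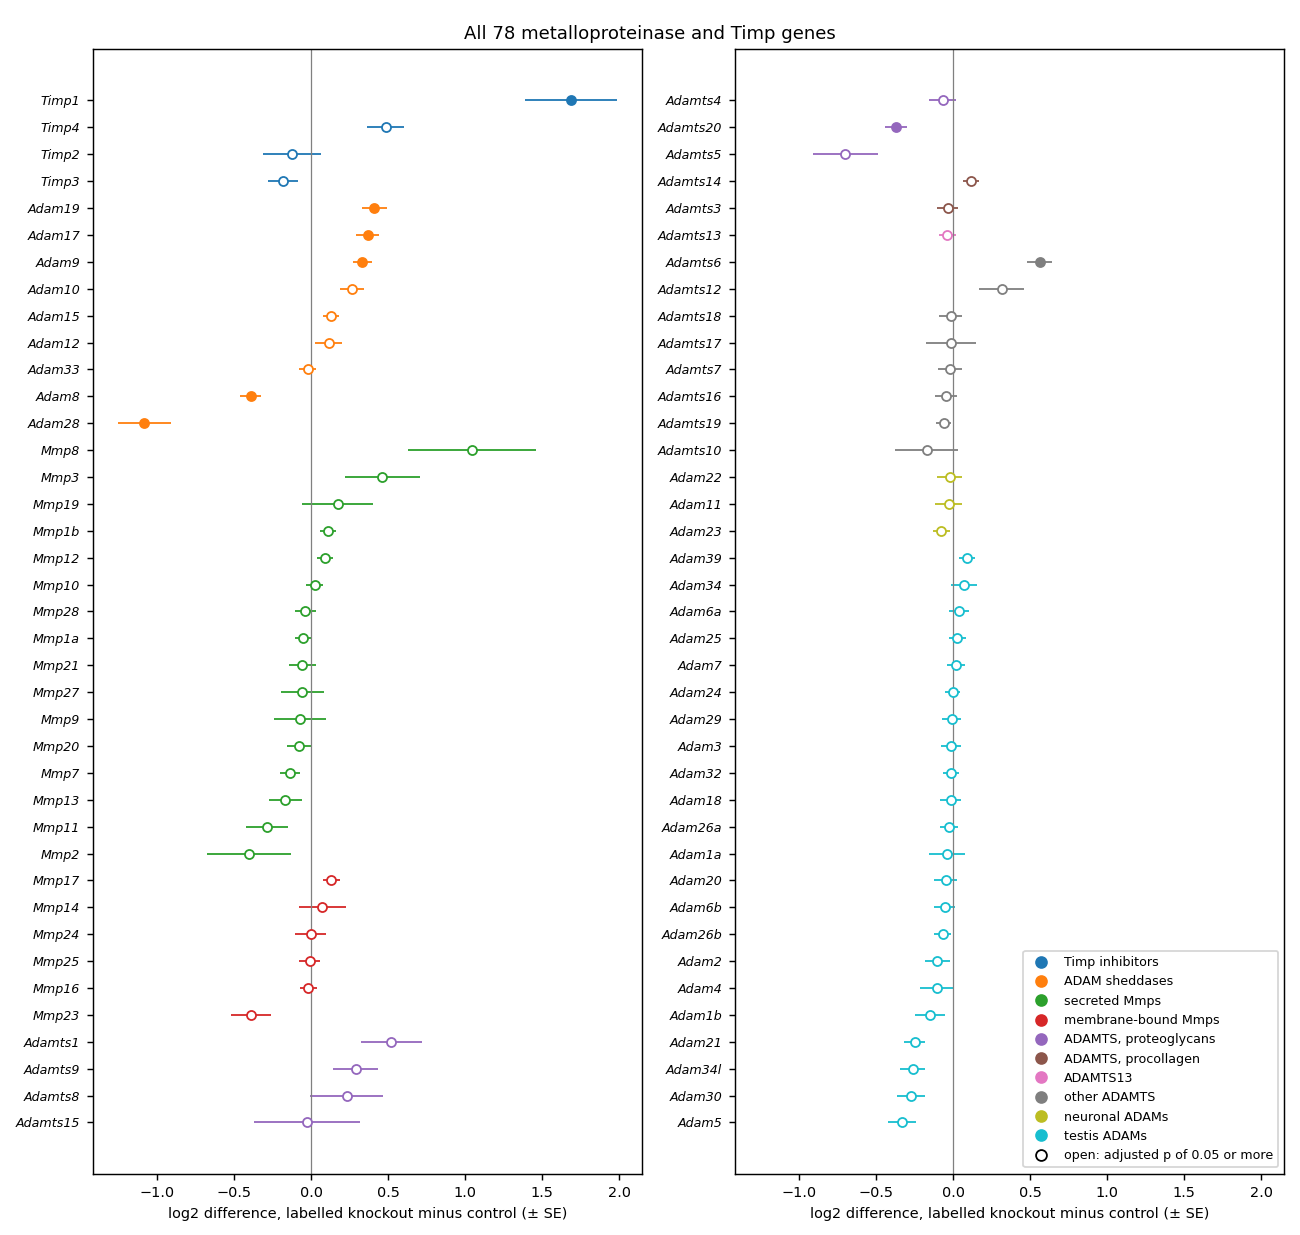
Log2 difference (labelled knockout minus control, horizontal axis) with its SE for all 78 genes, coloured by class; filled points had a limma adjusted p under 0.05. Timp1 lies farthest to the right at 1.69 and Adam28 farthest to the left at -1.08, while the ADAMs of testis lie between -0.33 and 0.09.

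The 4 Timp genes went different ways. Timp1, an inhibitor of most secreted Mmps that is induced by inflammatory cytokines in many tissues, rose 3.22-fold, Timp4 stood 1.40-fold higher without passing, and Timp2 and Timp3 did not pass either. Timp1 (probe set 10598976) read 8.49, 9.56 and 8.51 on labelled knockout 1, 2 and 3 and 7.49, 7.12 and 6.89 on control 1, 2 and 3. Every array labelled knockout lay above every control by more than the whole range of the controls (0.60), and labelled knockout 2 stood well above the other two. The fitted difference was 1.69 with a SE of 0.30 (limma adjusted p = 0.0188), and n was 3 per group here and for every fit below of all 6 arrays. The sequence around the Timp1 start is shown because this gene changed most among the members; capitals mark a GC box (GGGCGG on either strand), a match found in 35.7% of the 32851 RefSeq promoters of the same length (GRCm38.p6, 250 bases before to 50 after the start).
Timp1 promoter, chrX:20869916-20870215, + strand: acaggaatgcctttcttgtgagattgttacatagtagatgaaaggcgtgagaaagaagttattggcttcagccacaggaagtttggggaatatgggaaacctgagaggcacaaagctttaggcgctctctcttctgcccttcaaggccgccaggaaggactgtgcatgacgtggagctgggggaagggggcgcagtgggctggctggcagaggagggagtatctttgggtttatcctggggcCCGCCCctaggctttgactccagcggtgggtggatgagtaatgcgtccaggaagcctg

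The Timp1 call was lost without control 1 (adjusted p = 0.0513), control 2 (0.0822) or control 3 (0.0918), while the difference stayed between 1.33 and 1.87 over the 6 fits that left out 1 array. Timp1 lies on the X chromosome, and the array with the highest value was a male pool. In the 4 female pools alone the difference was 1.495 (adjusted p = 0.0339), and with the sex of the pool as a term it was 1.69 (adjusted p = 0.0104). The mean of 10 fibroblast markers was 9.10, 9.96 and 9.39 on labelled knockout 1, 2 and 3 and 9.60 to 9.74 on the controls. Among the arrays labelled knockout both were highest on labelled knockout 2, and the part of fibroblasts in the Timp1 result was not tested.

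Timp4, a Timp with a narrow tissue range, read 8.07, 8.10 and 7.79 against 7.71, 7.46 and 7.34. The groups did not overlap, by 0.08, and the difference of 0.48 ± 0.12 missed the limma threshold (adjusted p = 0.0550). It passed in the fit that blocked on replicate number (adjusted p = 0.0201) and with a sex term (0.0368). Timp2, which takes part in the activation of pro-Mmp2 by Mmp14, read 10.05, 10.82 and 10.17 against 10.45, 10.52 and 10.44. Labelled knockout 2 lay above and the other two below every control, and the difference was -0.12 ± 0.19 (limma adjusted p = 0.778). Without labelled knockout 2 it was -0.36 and passed (adjusted p = 0.0225). Timp3, which binds to the matrix and also inhibits ADAM17 and the aggrecanases, read 11.33, 11.73 and 11.54 against 11.68, 11.73 and 11.74. Its difference was -0.18 ± 0.10 (limma adjusted p = 0.349).

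**Figure D2:**
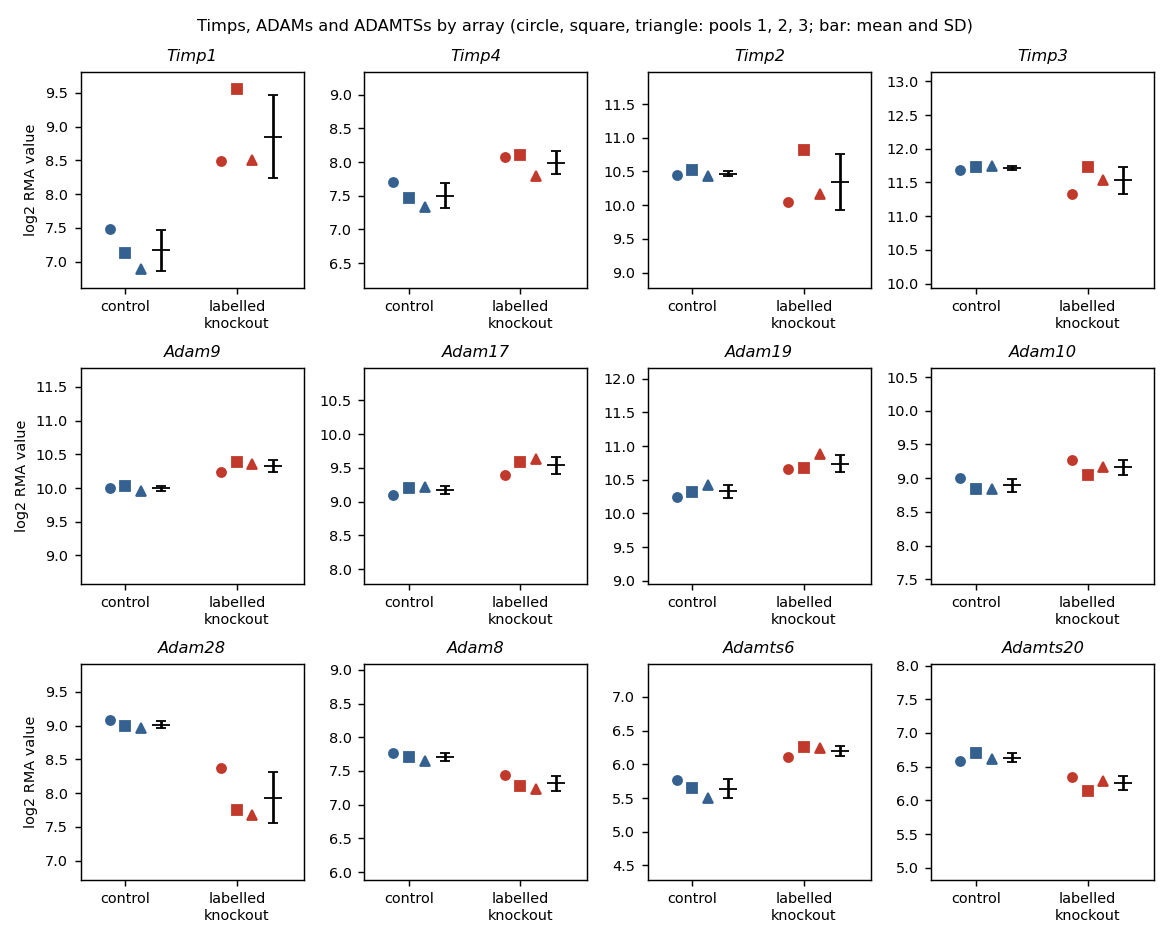
Log2 RMA value (vertical axis, each panel spanning 3.2 units) of the 4 Timps, 6 ADAMs and 2 ADAMTSs on each array; blue is control, red is labelled knockout, symbols give pools 1, 2 and 3, and bars give the mean and SD. The groups stand apart for Timp1 and Adam28, while Timp2 and Timp3 overlap.

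The ADAM sheddases held most of the called genes. Of 9 measured, Adam9, Adam17 and Adam19 rose, Adam8 and Adam28 fell, and Adam10, Adam12, Adam15 and Adam33 did not pass. That is 55.6% of the class, beside 8.49% of all genes, although 8 of the 9 had a mean above the array median of 6.79, where 12.8% of genes were called. Their median difference was 0.13. The 3 rises lay between 0.33 and 0.41 and were each about 1.3-fold. The groups did not overlap for 7 of the 9, beside 27.6% of all genes and 37.2% of those above the array median.

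Adam17 (probe set 10399605), the enzyme that releases TNF and several ligands of the EGF receptor, read 9.39, 9.59 and 9.63 against 9.10, 9.20 and 9.21. All 3 arrays labelled knockout were above all controls, by 0.18 or more, and the difference was 0.37 ± 0.08 (limma adjusted p = 0.0316). Adam9 (probe set 10577757), a sheddase widely made by epithelia, read 10.23, 10.39 and 10.36 against control values between 9.95 and 10.03. These groups were 0.20 apart, and the difference was 0.33 ± 0.06 (adjusted p = 0.0202). Adam19 (probe set 10375402), a sheddase of neuregulins, read 10.66, 10.67 and 10.88 against 10.24, 10.32 and 10.42. Labelled knockout 3 was highest, and the difference was 0.41 ± 0.08 (adjusted p = 0.0257).

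Adam10, which releases Notch and E-cadherin, read 9.27, 9.05 and 9.16 against control values between 8.84 and 9.0. The groups were 0.05 apart and the difference of 0.27 ± 0.08 did not pass (limma adjusted p = 0.0891). Adam15, a sheddase with an integrin-binding domain, stood at 0.13 ± 0.05 (adjusted p = 0.208) with groups 0.06 apart. Adam12 (0.11 ± 0.09) and Adam33 (-0.023 ± 0.057), both known from mesenchymal cells, had overlapping groups.

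Adam28 (probe set 10421143), a sheddase first known from lymphocytes and also made by airway epithelium, showed the largest fall of the families, 2.12-fold. It read 8.37, 7.75 and 7.68 on labelled knockout 1, 2 and 3 and between 8.97 and 9.08 on the controls. The highest array labelled knockout was 0.60 below the lowest control, and the difference was -1.08 ± 0.17 (limma adjusted p = 0.0130). Its order among the arrays labelled knockout was that of the ciliated cell markers (means 8.79, 8.40 and 8.24). This order was seen in 17.0% of all genes and 17.9% of the members. Club cell markers moved too: 3 of 6 fell (Scgb3a2 by 0.96, Aldh1a7 by 0.45 and Cyp2f2 by 0.29). Groups did not overlap for 5 of 6, beside 27.6% of all genes. The list means were 11.53, 11.41 and 11.75 against 11.84 to 11.92. Means of smooth muscle (9.01, 8.90 and 8.60) and mesothelial markers (8.88, 8.31 and 8.28) had the order of Adam28 as well. T cell markers were also highest on labelled knockout 1 (6.51). The part of any of these cells in the fall was not tested. In pooled cells fewer cells of a type cannot be told apart from less RNA per cell.

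Adam8 (probe set 10568873), a sheddase of granulocytes and macrophages, read 7.44, 7.28 and 7.23 against 7.77, 7.71 and 7.65. The groups were 0.21 apart, the order was again that of the ciliated markers, and the difference was -0.39 ± 0.07 (limma adjusted p = 0.0192). Macrophage markers gave means of 5.81 to 5.89 on the arrays labelled knockout and 5.79 to 5.88 on the controls, with 0 of 9 called. Of 10 neutrophil markers 1 was called, Retnlg, which was higher.

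The RefSeq promoters of the 3 sheddases that changed and have an entry are shown to set them beside that of Timp1. Capitals mark a GC box and, in Adam19, also the AP-1 motif TGANTCA, which 7.81% of all promoters hold. Adam19 has 3 entries, and the one shown is the only one with either motif. Of the called members 5 have an entry, and all 5 (Timp1, Adam8, Adam17, Adam19 and Adamts20) hold a GC box, beside 43.8% of the 48 members with an entry. That share is lowered by 10 neighbouring Mmp genes described below, of which 0 hold a GC box. None of the 5 holds a match to TGACGTCA, TTCNNNGAA or TATAAA.
Adam17 promoter, chr12:21373583-21373882, - strand: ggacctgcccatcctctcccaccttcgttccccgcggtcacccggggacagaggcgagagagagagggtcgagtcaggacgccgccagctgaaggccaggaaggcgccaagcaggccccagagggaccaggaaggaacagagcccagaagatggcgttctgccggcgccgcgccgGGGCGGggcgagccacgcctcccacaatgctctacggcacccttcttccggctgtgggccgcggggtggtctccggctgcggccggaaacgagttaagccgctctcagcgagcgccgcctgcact
Adam19 promoter, chr11:46055734-46056033, + strand: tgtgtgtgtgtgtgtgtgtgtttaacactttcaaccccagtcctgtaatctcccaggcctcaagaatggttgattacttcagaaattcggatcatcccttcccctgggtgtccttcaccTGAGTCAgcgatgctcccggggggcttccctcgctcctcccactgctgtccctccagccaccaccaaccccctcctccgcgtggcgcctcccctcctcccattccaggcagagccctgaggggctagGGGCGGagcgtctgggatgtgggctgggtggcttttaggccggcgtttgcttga
Adam8 promoter, chr7:139992513-139992812, - strand: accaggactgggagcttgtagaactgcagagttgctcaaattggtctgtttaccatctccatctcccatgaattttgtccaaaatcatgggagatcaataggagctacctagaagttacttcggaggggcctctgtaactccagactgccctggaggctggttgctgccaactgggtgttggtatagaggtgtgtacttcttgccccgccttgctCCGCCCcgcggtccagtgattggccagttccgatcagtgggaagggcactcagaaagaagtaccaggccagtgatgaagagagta

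Each sheddase call was lost in several of the fits that left out 1 array, in which fewer genes of any kind were mostly called. The groups did not overlap for any of the 5 called, so leaving out arrays could not turn a direction. Without labelled knockout 3 the calls of Adam8 (adjusted p = 0.0623), Adam9 (0.0703), Adam17 (0.0976) and Adam19 (0.0596) were lost. Without labelled knockout 2 that of Adam17 was lost (0.0605), as it was with a sex term (0.0597). Without control 1, 2 or 3 all 5 were lost, with limma adjusted p of 0.0623 to 0.0665 for Adam28 and of up to 0.0865 for Adam8, 0.0949 for Adam9, 0.107 for Adam19 and 0.121 for Adam17. Over all genes 2.98%, 2.58% and 2.3% were called without control 1, 2 and 3, beside 8.49% with all 6 arrays. In the 4 female pools alone none of the 5 passed (adjusted p of 0.111 to 0.175), and 0.993% of all genes were called. Under the replicate block all 5 calls held.

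Genes that act on the sheddases, or neighbour them, gave a few calls. Of 29 measured activators, inhibitors and partners 2 rose and 0 fell (6.90%, beside 8.49% of all genes), with a median of 0.12. Pcsk6, a proprotein convertase of the furin family, read 8.68, 8.70 and 8.50 against 8.33, 8.19 and 8.08, a rise of 0.43 ± 0.09 (limma adjusted p = 0.0274). Tspan14, a tetraspanin that escorts ADAM10 to the cell surface, read 9.98, 9.85 and 9.90 against 9.53, 9.58 and 9.69, a rise of 0.31 ± 0.06 (adjusted p = 0.0306), which did not hold under the replicate block (adjusted p = 0.0602). Tspan14 was not called without labelled knockout 1 or 3 or any 1 control (adjusted p of up to 0.130), and Pcsk6 was not called without labelled knockout 1 or 2 or control 2 or 3 (up to 0.113).

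Of 19 other zinc proteases and ADAMTS-like genes only Adamdec1 was called (5.26%, beside 8.49% of all genes), and it fell. Adamdec1 encodes decysin, an ADAM-like secreted protease, and RefSeq (GRCm38.p6) places it between Adam7 and Adam28. It read 7.18, 6.49 and 6.68 against 7.89, 7.68 and 7.81, a fall of 1.01 ± 0.17 (limma adjusted p = 0.0149). The groups were 0.50 apart, and labelled knockout 1 was the highest of its group for both Adamdec1 and Adam28. On the other side Adam7, a gene of the epididymis, read 4.21, 4.31 and 4.36 against 4.23, 4.29 and 4.30. The Adamdec1 call was lost without labelled knockout 3 (adjusted p = 0.0597) or any 1 control (up to 0.0778).

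Of 35 membrane proteins that ADAMs are known to shed, 3 rose and 6 fell (25.7%, median 0.02). The share called was 8.49% of all genes and 12.8% of those above the array median, where 26 of the 35 lay. Jag1, a Notch ligand, fell 1.96-fold, from 10.08, 10.04 and 9.95 on the controls to 9.35, 8.91 and 8.90, a difference of -0.97 ± 0.12 (limma adjusted p = 0.0067). The groups were 0.60 apart, and the call held whichever array was left out. Notch1, a receptor cut by ADAM10, fell from 9.64, 9.68 and 9.80 to 9.41, 9.24 and 9.19, a difference of -0.43 ± 0.08 (adjusted p = 0.0192). Among rises, the prion protein gene Prnp went from 11.17, 11.02 and 10.95 to 11.54, 11.46 and 11.55 (0.47 ± 0.07, adjusted p = 0.0103). Icam1, an adhesion molecule for leukocytes, went from 10.56, 10.38 and 10.39 to 11.01, 10.86 and 10.86 (0.47 ± 0.07, adjusted p = 0.0123). The other 5 called, named after their values were seen, were the growth factors Nrg1 (-0.48) and Btc (-0.46), the receptor Notch2 (-0.22), the adhesion protein L1cam (-0.24) and Ager (0.22), a receptor of type I cells.

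Most of these substrate calls were also lost in some fits that left out 1 array. Those fits called 2.3% to 9.67% of all genes. Without control 2 or 3 Jag1 alone of the 9 was called, and Prnp and Icam1 reached limma adjusted p of up to 0.0585 and 0.0699. Notch1 was also lost without labelled knockout 3 or control 1 (up to 0.0863 over such fits). Nrg1 was lost without labelled knockout 2 or any 1 control, Btc and L1cam without any 1 array other than labelled knockout 1, Ager without any other than labelled knockout 2, and Notch2 without any array, with adjusted p of up to 0.131, 0.160, 0.153, 0.153 and 0.147. Under the replicate block the calls of Ager (0.0824), Notch2 (0.0793) and L1cam (0.0637) were lost, and Il6ra, a subunit of the interleukin 6 receptor, passed (-0.41, 0.0240; 0.0895 without the block). Renewed quantile normalization ended the calls of Btc (0.0570) and L1cam (0.0869), and a sex term ended those of Nrg1 (0.0621), Ager (0.0692), Notch2 (0.0657), Btc (0.0731) and L1cam (0.0806). Jag1, Notch1 and Nrg1 had the array order of the ciliated markers (highest on labelled knockout 1, lowest on 3), seen in 17.0% of all genes.

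**Figure D3:**
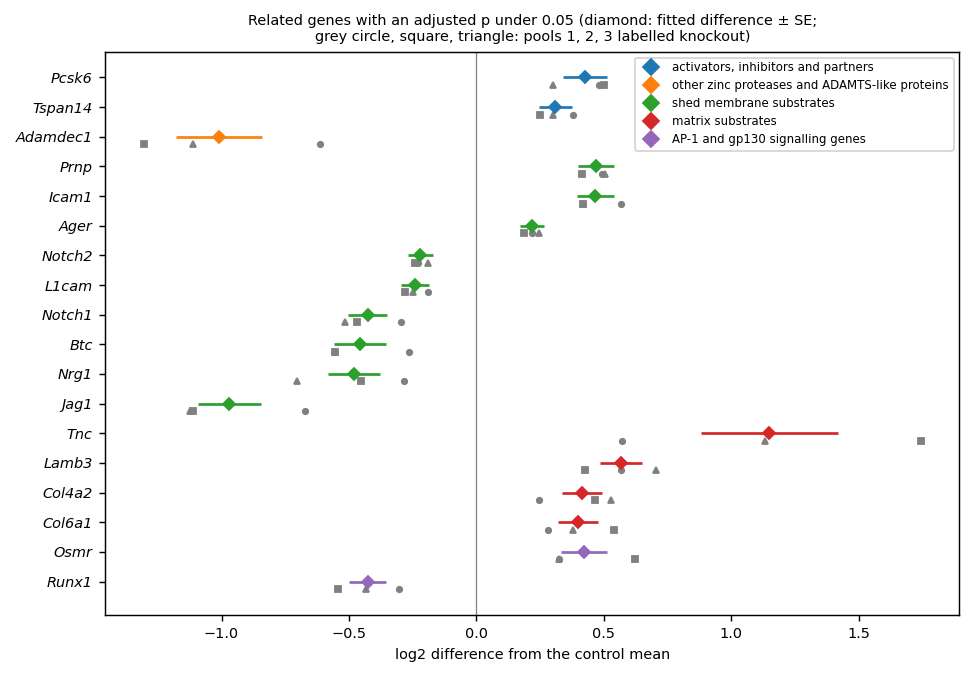
Fitted log2 difference from the control mean (horizontal axis, diamonds with SE) of the 18 genes on 5 lists of substrates, partners and regulators that had a limma adjusted p under 0.05; grey symbols give the single arrays labelled knockout. Tnc at 1.15 is the highest and Adamdec1 at -1.01 the lowest, and all 3 arrays lie on the same side of 0 for every gene.

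No Mmp passed. Of 16 secreted Mmps, among them the collagenases, gelatinases and stromelysins, 0 rose and 0 fell by limma, and 1 had an unadjusted p under 0.05. Of 6 membrane-bound Mmps 0 passed and 1 had an unadjusted p under 0.05. The shares over all genes were 8.49% called and 22.1% with an unadjusted p under 0.05. A mean below the array median was found for 11 of the 16 and 4 of the 6. Differences ran from -0.40 to 1.04 for the secreted and from -0.39 to 0.13 for the membrane-bound enzymes, with medians of -0.053 and -0.007. The 2 lowest p values belonged to Mmp23 and Mmp8.

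Mmp8, the collagenase of neutrophils, read 4.56, 6.44 and 5.29 against 4.43, 4.37 and 4.36. Every array labelled knockout was above every control, but labelled knockout 2 lay 1.88 above labelled knockout 1, and the difference of 1.04 ± 0.42 did not pass (limma adjusted p = 0.200). Without labelled knockout 1 it was 1.48 and passed (adjusted p = 0.0267), and without labelled knockout 2 it was 0.54 (adjusted p = 0.155). Neutrophil markers averaged 5.47, 5.36 and 5.64 against 5.28 to 5.38. The called one, Retnlg, read 5.98, 6.12 and 5.68 against 5.44, 5.44 and 5.17, and Ltf stood apart on labelled knockout 3 (9.25). The part of neutrophils in the Mmp8 values was not tested. Mmp23, a small membrane enzyme without the usual hemopexin domain, read 7.44, 7.07 and 6.94 against 7.63, 7.53 and 7.46. Its groups were 0.02 apart, and the difference was -0.39 ± 0.13 (adjusted p = 0.126), with a call under the replicate block (0.0493) and without labelled knockout 1 (0.00666).

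Mmp2, the gelatinase of mesenchymal cells, read 10.02, 11.23 and 10.52 against 10.88, 11.09 and 11.01, and its difference was -0.40 ± 0.27 (limma adjusted p = 0.465). Labelled knockout 2 exceeded every control and the other two lay below them. Without labelled knockout 2 the difference was -0.72 and passed (adjusted p = 0.0342). Mmp14, the membrane enzyme that activates pro-Mmp2, read 8.60, 9.21 and 8.66 against 8.75, 8.80 and 8.70, and Mmp9, the other gelatinase, read 6.04, 5.39 and 5.57 against 5.81, 5.55 and 5.85. Both overlapped. Mmp12, the elastase of macrophages, read 5.26, 5.21 and 5.25 against 5.17, 5.19 and 5.09, groups 0.02 apart at a difference of 0.09 ± 0.05 (adjusted p = 0.382). Mmp7, the matrilysin of injured lung epithelium, stood at -0.14 ± 0.07 (adjusted p = 0.288).

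RefSeq places 10 of the secreted Mmps next to each other (Mmp13, Mmp12, Mmp1b, Mmp3, Mmp1a, Mmp10, Mmp8, Mmp27, Mmp20 and Mmp7). In this cluster 0 of 10 were called by limma and 1 had an unadjusted p under 0.05, beside 8.49% and 22.1% of all genes. Differences ran from -0.17 to 1.04 with a median of -0.013. A mean below the array median was found for 9 of the 10. Of the 10 promoters 9 hold TATAAA (13.6% of all promoters), 8 hold the AP-1 motif and 0 hold a GC box. The Mmp3 promoter, with both in capitals, shows the layout.
Mmp3 promoter, chr9:7445572-7445871, + strand: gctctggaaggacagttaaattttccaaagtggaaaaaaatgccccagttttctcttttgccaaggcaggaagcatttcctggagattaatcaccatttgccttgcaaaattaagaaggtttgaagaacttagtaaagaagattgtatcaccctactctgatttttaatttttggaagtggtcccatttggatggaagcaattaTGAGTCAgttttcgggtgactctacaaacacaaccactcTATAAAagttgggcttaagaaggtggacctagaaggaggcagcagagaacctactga

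Mmp3, stromelysin-1, read 6.90, 7.97 and 7.26 against 7.02, 6.83 and 6.89, a difference of 0.46 ± 0.25 (limma adjusted p = 0.338) with 1 array labelled knockout among the controls. Among 19 genes of AP-1 and gp130 signalling, factors and receptors that are known to control Mmp and Timp1 genes, 1 rose and 1 fell (10.5%). The share over all genes was 8.49%. Osmr, the oncostatin M receptor, rose from 10.15, 10.09 and 10.05 to 10.42, 10.72 and 10.42 (0.42 ± 0.09, adjusted p = 0.0341). Runx1, a transcription factor, fell from 9.99, 9.99 and 10.06 to 9.71, 9.47 and 9.58 (-0.43 ± 0.07, adjusted p = 0.0151). Both calls were lost without labelled knockout 3 or any 1 control, with adjusted p of up to 0.137 and 0.0796, and that of Osmr also on renewed quantile normalization (0.0610).

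Of the 18 ADAMTS genes 1 rose and 1 fell, beside 8.49% of all genes called, a share close to that of any gene. Adamts6 (probe set 10406982), a protease tied to fibrillin microfibrils, had the smallest p of all members. It read 6.11, 6.25 and 6.24 against 5.77, 5.65 and 5.50, groups 0.34 apart, a rise of 0.56 ± 0.08 or 1.47-fold (limma adjusted p = 0.00975). The call was lost without control 2 (adjusted p = 0.0520) and in the female pools alone (0.0555) and held in the other 5 fits that left out 1 array. Adamts20 (probe set 10431749), a versican-cleaving protease known for pigment cell migration, read 6.35, 6.14 and 6.29 against 6.58, 6.71 and 6.61. It fell by 0.37 ± 0.07 (adjusted p = 0.0241), a call that was lost under the replicate block (0.0559), without labelled knockout 3 (0.0664) and without any 1 control (up to 0.106). Both lie below the array median of 6.79.

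Adamts1 and Adamts5, which cut versican and aggrecan and neighbour each other in RefSeq, stood on opposite sides of 0 without passing. Adamts1 read 9.14, 9.92 and 9.38 against 9.16, 8.93 and 8.79 (0.52 ± 0.20, limma adjusted p = 0.179), and passed with a sex term (0.0465). Adamts5 read 8.49, 8.42 and 7.66 against 8.82, 8.88 and 8.97 (-0.70 ± 0.21, adjusted p = 0.0969), with all arrays labelled knockout below all controls and labelled knockout 3 far below. Adamts5 was called without labelled knockout 3 (-0.44, adjusted p = 0.0275) and without labelled knockout 1 (-0.85, 0.0485). Adamts9, with 6 probe sets that all lay above 0 (0.16 to 0.37) and none called, stood at 0.29 ± 0.15 and passed with the replicate block (adjusted p = 0.0445). The 16 probe sets of Adamts3 (9 above 0, 7 below) and the 5 of Adamts17 (2 above, 3 below) disagreed in direction, with none called.

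Members of several classes shared an order of the arrays labelled knockout. In 27 of the 78 members (34.6%, beside 14.1% of all genes) labelled knockout 2 was highest and labelled knockout 1 lowest. By class they were 3 of 4 Timps, 7 of 22 secreted or membrane-bound Mmps, 9 of 18 ADAMTSs, 7 of 22 testis ADAMs and 1 of 9 sheddases (Adam9), a count made after the values were seen. Of the 22 testis ADAMs 21 had a mean below the array median. In some the order rested on hundredths, as in Adam24 (3.88, 3.92 and 3.89). The widest spread was that of Mmp8, followed by Adamts15, which read 6.97, 8.48 and 8.04 against 7.77, 7.90 and 7.90. The SD over the arrays labelled knockout had a median of 0.110 in the members and 0.0907 in all genes; over the controls these were 0.0673 and 0.0625.

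The fibroblast marker mean had the same order (9.10, 9.96 and 9.39), and so did 6 of the 10 markers, among them Pdgfra (9.12, 11.08 and 10.18) and Tcf21 (7.74, 10.04 and 8.90). Dcn (11.41, 10.63 and 10.48), Lum, Col3a1 and Col1a1 did not. Of 10 fibroblast markers 0 were called by limma and 0 had an unadjusted p under 0.05, with a median difference of -0.22. Smooth muscle and pericyte markers read 9.01, 8.90 and 8.60 against 8.34 to 8.81 on average, and mesothelial markers 8.88, 8.31 and 8.28 against 8.42 to 8.87, with 0 called in either. Of the 8 smooth muscle and pericyte markers 8 had a difference above 0 (median 0.29), and 3 (Des, Acta2 and Myh11) had an unadjusted p under 0.05. The part of these cells in the members' spread was not tested.

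**Figure D4:**
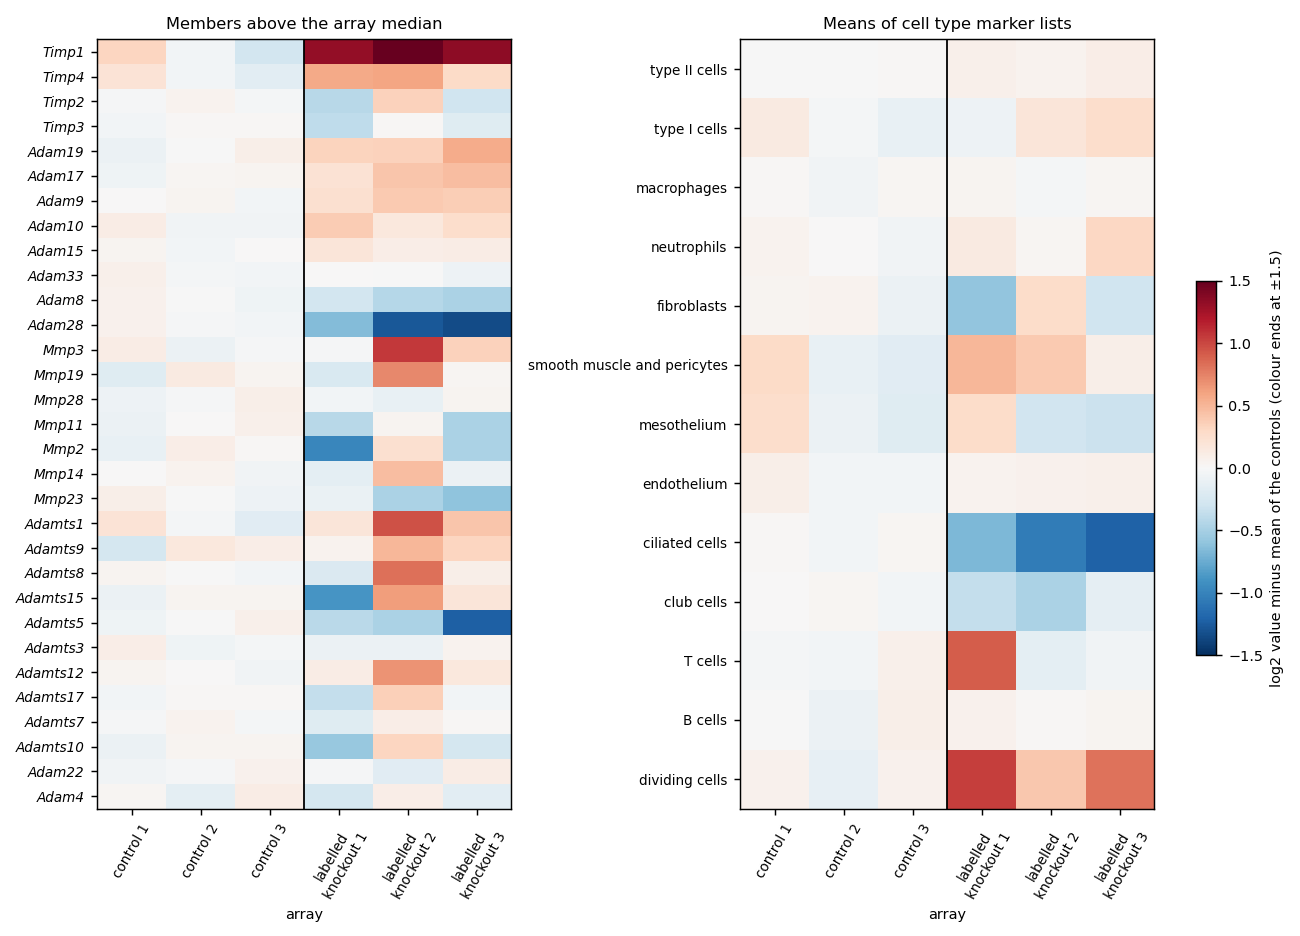
Log2 value minus the mean of the 3 controls (colour) on each array (columns) for the 31 members with a mean above the array median (left) and for the means of the cell type marker lists (right). On labelled knockout 2 Mmp3, Mmp19, Adamts1, Adamts8 and Adamts15 are above the control mean, as is the fibroblast list; the ciliated list is below it on all 3 arrays labelled knockout.

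Among matrix proteins that these enzymes cut, 4 of 35 rose and 0 fell (11.4%, beside 8.49% of all genes), with a median of 0.13. Lamb3, a chain of the epithelial laminin of basement membranes, rose from 8.07, 7.93 and 7.98 to 8.56, 8.42 and 8.70 (0.57 ± 0.08, limma adjusted p = 0.00963). Col4a2, a basement membrane collagen chain, rose from 8.67, 8.70 and 8.65 to 8.92, 9.14 and 9.20 (0.41 ± 0.08, adjusted p = 0.0240). Col6a1, a chain of a microfibrillar collagen, rose from 9.69, 9.83 and 9.73 to 10.03, 10.29 and 10.13 (0.40 ± 0.08, adjusted p = 0.0263). Tnc, a matrix glycoprotein of injured tissue, rose 2.22-fold from 7.51, 7.22 and 7.52 to 7.99, 9.16 and 8.55 (1.15 ± 0.27, adjusted p = 0.0459). Tnc and Col6a1 had the fibroblast marker order. The Tnc call was lost under the replicate block (adjusted p = 0.0621). Without labelled knockout 3 or any 1 control Tnc, Col4a2 and Col6a1 did not pass (adjusted p of up to 0.168, 0.104 and 0.111), and without control 2 or 3 Lamb3 did not (up to 0.0568).

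The ADAMs of testis and epididymis, most of which act in sperm, and the neuronal ADAMs showed no call. Of 22 testis ADAMs 0 passed by limma and 4 had an unadjusted p under 0.05, beside 8.49% and 22.1% of all genes. Of the 22, 21 had a mean below the array median. Their differences lay between -0.33 and 0.09, with 17 of the 22 below 0, beside 9583 of all 19938 genes. The nearest to a call were Adam21 (-0.25 ± 0.07, adjusted p = 0.0711) and Adam5 (-0.33 ± 0.09, adjusted p = 0.0799). Adam5 read 5.54, 5.53 and 5.36 against 5.63, 5.88 and 5.92, and Adam21 read 5.50, 5.56 and 5.52 against 5.79, 5.66 and 5.88, groups 0.09 and 0.10 apart. The neuronal Adam11, Adam22 and Adam23, which bind partners without cutting, lay between -0.077 and -0.023, with 0 of 3 called and 0 with an unadjusted p under 0.05.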

How the data were processed

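The submitters' processing notes name RMA and Affymetrix Expression Console 1.1, and the deposited values are on a log2 scale. As background, RMA corrects each array's background, equalises distributions by quantiles and summarises probes by median polish, so a shift shared by most genes would not be seen and low values are compressed. No genome build is named in the labels. Of 35556 probe sets 21789 had 1 gene symbol in the platform annotation; genes with several kept the probe set with the highest mean, giving 19938 genes.

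Arrays labelled knockout were compared with controls with limma 3.58.1 in R 4.3.3 (lmFit, eBayes without trend, two-sided, no block, no filter), Benjamini-Hochberg over all genes, threshold 0.05. An exact permutation test of 3 against 3 cannot go below 0.1. In a simulation of this comparison with 19938 genes, 57 of 100 changes of 0.5 and 94 of 100 changes of 1 were recovered, and 9 unchanged genes were called. Blocking on replicate number lowered the recovery to 15 of 100 changes of 0.5 and 83 of 100 changes of 1. A call lost under that block therefore does not show that the gene was unchanged. In the data the SD was larger over the arrays labelled knockout for 68.2% of all genes. The simulated recovery need not hold for such spread.

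Deviations of same-numbered arrays correlated at 0.192, 0.103 and 0.111, so the replicate number was also fitted as a block. This pairing rests on the values alone. Replicates 1 and 2 each pair a male with a female pool, so sex enters the blocked differences. The labels do not say that the pools were separate isolations, so p-values measure the spread between these pools, part of which may be technical. The first number of the array titles (9, 9 and 11; 8, 8 and 10) is unexplained; no value is shared by the groups, so whatever it marks cannot be told apart from the label.

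The members and lists were chosen with earlier results of these data known. Named were all called members, the 4 Timps, members with adjusted p from 0.05 to 0.1, and per related list up to 4 called genes with the smallest p. Of the marker lists not every called gene was named: called ciliated and dividing cell genes were given only as counts and list means. The 14 members called in an alternative only were too many to name by the rule. Members outside the rule were named for their role after their values were seen. Motifs were searched on both strands in RefSeq promoters, held for 48 members. No set test was run.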

Additional observations from a re-analysis of the deposited data

How the results depend on the processing

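The limit of this design is 3 arrays per group, and most calls lay close to the threshold. All 8 called members kept their direction in the 15 alternatives in which they were tested. Their groups did not overlap, so leaving out arrays could not have turned a direction. Leaving out 1 array gave 0 to 6 members higher and 0 to 6 lower, 144 to 835 of all genes higher and 301 to 1265 lower, and 0 to 14 related genes (substrates, partners and regulators) higher and 1 to 9 lower. Without control 2 no member was called by limma, but 16 had an unadjusted p under 0.05. Under the replicate block 7 members were higher and 3 lower, and beside the changes given above it changed no other call of a named member or related gene. With the title number as a random block (consensus correlation -0.514) 10 members were higher and 7 lower, 1881 of all genes higher and 1804 lower, with 23 and 15 of the related genes. No title number is shared by the groups, so this block could not adjust the comparison. A negative correlation within blocks lowers the SE of a group mean, and 18.5% of all genes were called, beside 8.49% in the main fit. Using the female pools (n = 4), 1 member (Timp1) was higher and 0 lower, while 23 had an unadjusted p under 0.05; 114 of all genes were higher and 84 lower, and 2 related genes higher and 0 lower. With arrayWeights 6 members were lower and 17 related genes higher. With a sex term 4 related genes were lower. Normalizing again by quantiles, an intensity trend and the mean of probe sets left 8 of 8 member calls; the first ended 3 calls of related genes (Btc, L1cam and Osmr). With only genes above the array median, 7 members were called, 6 of them shared; Adamts6 and Adamts20 were then not tested. Signal over background is not part of the deposited values, so how many of the 47 members below the array median were detected was not analysed here.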

Other observations

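Of 10 type II cell markers 1 was called, Lamp3 (10%, beside 8.49% of all genes), and it rose (0.32 ± 0.07, limma adjusted p = 0.0337). Groups did not overlap for 5 of the 10 (4 higher and 1 lower), beside 27.6% of all genes. The part of type II cell content in the results for the members was not tested. Of 9 type I cell markers Ager was called, and it rose (0.22 ± 0.05, limma adjusted p = 0.0363). Above 0 were 6 of the 9 differences, with a median of 0.08. Without passing they ran from Aqp5 (-0.38 ± 0.11, adjusted p = 0.0875) to Akap5 (0.72 ± 0.21, adjusted p = 0.0955). Among 10 endothelial markers, Pecam1, an adhesion protein, rose (0.45 ± 0.07, adjusted p = 0.0104) and Kdr, the VEGF receptor, fell 2.26-fold (8.54, 7.90 and 7.76 against 9.40, 9.22 and 9.11; adjusted p = 0.0152). Kdr had the order of Adam28 and of the ciliated markers among the arrays labelled knockout, seen in 17.0% of all genes. Dividing cell genes rose in 4 of 6 measured, beside 3.36% of all genes called higher, with means of 9.31, 8.68 and 9.09 against 8.15 to 8.34. No Timp had this order, but several members did, among them the called Adamts20 and also Adam10, Adam15 and Mmp9. Tspan14, Runx1 and Adamdec1 had it as well. The share of all genes with this order was not counted, and the part of dividing cells was not tested.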
